A study of Mus musculus with 18 samples.

Results

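At 2 weeks of age, mouse hearts whose cardiomyocytes carry Myh6-driven Cre and 2 floxed copies of Cops8 (Hom-CKO, Csn8flox/flox::Myh6-CreTG) were compared with hearts that carry the same Cre and 1 floxed copy (Het-CKO, Csn8flox/+::Myh6-CreTG). The comparison was taken from the sample titles and uses 6 of the 18 arrays of the series, with 3 hearts per group and 1 heart per array. All mice were of the FVB/N inbred strain, and in the floxed allele loxP sites surround exons 4 to 6 of Cops8. The CTL littermates were Csn8flox/flox without the transgene, so Hom-CKO and Het-CKO hearts share the Cre and differ in the number of Cops8 copies it can delete. Ventricular RNA was read on 1-colour CodeLink whole-genome arrays, and the other 9 arrays are hearts of the same 3 genotypes at 3 weeks. Since Myh6 drives Cre in cardiomyocytes, the other cells of the ventricle keep the gene. The labels name no litter, so the p-values measure the spread between these hearts.

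Cops8 encodes CSN8, the smallest subunit of the COP9 signalosome. This complex removes the ubiquitin-like protein NEDD8 from cullins, the scaffolds of the cullin-RING ubiquitin ligases (CRLs), and so takes part in the cycle by which these ligases exchange the receptors that bring them their substrates. In the heart, which renews its contractile proteins through the ubiquitin-proteasome system and autophagy, cardiomyocytes under load return to a fetal pattern of transcripts that is led by natriuretic peptides and fetal forms of contractile proteins.

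A level is given throughout as the quantile-normalized intensity relative to the median probe, so that 1 is the level of the median probe, with a floor of 0.318 for the dimmest signals. Fold changes are on the log2 scale as Hom-CKO minus Het-CKO, each with its standard error. A probe was called where the Benjamini-Hochberg adjusted p of limma, over 26580 probes tested, was under 0.05. In bulk ventricle, fewer cells of a type and less RNA per cell cannot be told apart. The raw median intensity was 51.8 to 57.0 on the Het-CKO and 42.0 to 57.7 on the Hom-CKO arrays, and the probes near background made up 21.3% to 22.8% and 22.3% to 26.5% of all probes. Precision is limited by having 3 arrays in a group.

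The array did not show the deletion. The brighter Cops8 probe read 39.9, 41.4 and 34.9 in Hom-CKO replicates 1 to 3 and 37.5, 34.2 and 34.8 in Het-CKO replicates 1 to 3. The other probe read 26.4, 23.1 and 23.2 against 22.8, 23.3 and 22.1. Both sets of arrays overlapped (log2 fold changes 0.12 and 0.09, adjusted p = 0.669 and 0.754). A probe outside the floxed exons checks nothing, and the position of these probes was not analysed here. The subunits around CSN8 overlapped between the groups as well. Cops5, the subunit that carries the deneddylating active site, read 12.6, 10.9 and 10.7 in Hom-CKO and 12.6, 13 and 11.2 in Het-CKO hearts. Cops6, its partner of the same domain family, read 30.0, 30.3 and 32.9 against 30.8, 34.8 and 32.0. Of the 9 signalosome genes tested, 0 were called and 0 had an unadjusted p under 0.05, with log2 fold changes from -0.18 for Cops4 to 0.12 for Cops8.

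The hearts were not matched for sex. Xist, which is transcribed from the inactive X chromosome of female cells, read 17.3, 17.3 and 19.3 in the Het-CKO hearts. In the Hom-CKO hearts it read 19.7 in replicate 1 and the floor of 0.318 in replicates 2 and 3. Y-linked Ddx3y read 0.318, 9.93 and 10.6 in Hom-CKO replicates 1 to 3 and 0.318 in every Het-CKO heart. The 3 CTL hearts read 15.9 to 18.0 for Xist and 0.318 for Ddx3y. The methods state that both sexes were used in every group, and in these 2-week arrays the male pattern was seen in Hom-CKO replicates 2 and 3 only. With Xist as a covariate, 640 probes were called, of which 513 were among those called without it.

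Hom-CKO hearts differed from Het-CKO hearts at 842 probes, 402 of them higher (1.51% of the probes tested) and 440 lower (1.66%). Most of the changes were small. The median called rise was 0.60 and the median called fall -0.58 on the log2 scale, 1.52-fold and 1.49-fold. A change of at least 1 was seen at 81 of the higher and 47 of the lower probes, and a change of at least 2 at 5 and 2 of them. At each of the 842 called probes the Hom-CKO arrays with a value lay wholly above or wholly below the Het-CKO arrays with a value. The calls were made on these same values, which favours such a separation, so it adds no support to them. The share of all probes tested that separate in this way is not given here. All 6 arrays gave a value at 774 of these probes, and at 4 a group had 1 value, for which limma takes the spread from the other groups. An unadjusted p under 0.05 was found for 3968 probes. Where 1 array was left out the count fell to between 401 (without Hom-CKO replicate 1) and 612 (without Hom-CKO replicate 3), with 529, 406 and 443 without Het-CKO replicates 1 to 3 and 521 without Hom-CKO replicate 2. With the replicate number as a block it was 694. The methods' t-test called 223 probes after Benjamini-Hochberg adjustment, and it ended 107 of the 161 calls at the probes named by rule. Its adjusted p is given below for Gdf15, Ankrd1, Nppa, Tbx15, Egr2 and Myc only. Taken as 1 probe per gene, the brightest, 16613 genes were tested with a median change of 0.00, of which 309 were higher (1.86%) and 310 lower (1.87%). These 2 shares are the background for the gene lists that follow. Lists and members were chosen with earlier results of these data known, so a share above this background is no independent evidence.

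Among the 20 largest rises with a gene symbol were transcripts of secreted stress and load markers. Gdf15, a cytokine of the TGF-β family that stressed cells release, read 5.45, 3.77 and 1.65 in Hom-CKO hearts and 0.341, 0.318 and 0.318 in Het-CKO hearts (a log2 fold change of 3.31, standard error 0.33, adjusted p = 2.67e-05). The lowest Hom-CKO heart was thus still clear of the Het-CKO hearts, which sat at or next to the floor, and 2 of the 3 Het-CKO values stand for a bound. The CTL hearts lay slightly higher than the Het-CKO hearts, at 0.521 ± 0.124 (SD, n = 3). Nppa, the gene of atrial natriuretic peptide, read 27.6, 29.7 and 21.6 in Hom-CKO and 6.66, 4.80 and 16.4 in Het-CKO hearts (1.69, standard error 0.40, adjusted p = 0.0288). Ankrd1, a stretch-responsive partner of titin, read 44.3, 34.5 and 24.7 against 11.2, 9.92 and 7.62 (1.83, standard error 0.25, adjusted p = 0.000552). Acta1, the skeletal form of α-actin that marks the fetal program, read 162, 144 and 126 against 50.2, 51.0 and 58.4 (1.43, standard error 0.33, adjusted p = 0.0288). Gdf15, Ankrd1 and Acta1 were each highest in Hom-CKO replicate 1. The adjusted p was over the threshold for Acta1 without any 1 of the 6 arrays (adjusted p 0.0564 to 0.129), and with the replicate number as a block its adjusted p was 0.0591. With Xist as a covariate the adjusted p was over the threshold for Acta1 (0.124) and Nppa (0.0571). By the methods' t-test on the same values the adjusted p was 0.0896 for Gdf15, 0.0931 for Ankrd1 and 0.227 for Nppa.

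Het-CKO hearts were uneven in atrial transcripts, which bears on Nppa. Myl7, the atrial myosin light chain, read 1.72 and 75.8 in Het-CKO replicates 2 and 3, with the spot of replicate 1 left out. It read 24.4, 13.7 and 36.7 in the Hom-CKO and 39.4, 37.3 and 28.7 in the CTL hearts. Sln, the atrial inhibitor of the calcium pump, read 0.954 and 15.2 in Het-CKO replicates 2 and 3, with replicate 1 again left out. It read 5.06, 2.77 and 6.36 in the Hom-CKO and 8.82, 9.16 and 5.00 in the CTL hearts. In both genes Het-CKO replicate 2 thus lay below, and replicate 3 above, every other heart of this age with a value. Over the 7 of 10 atrial and conduction markers besides Nppa that had a value on all 9 arrays of this age, which leaves out Myl7 and Sln, the summed level was 36.9, 37.1 and 60.7 in Het-CKO, 49.8, 38.5 and 44.0 in Hom-CKO and 40.6 to 55.3 in CTL hearts. Of the 10 markers 0 were called. These markers moved with Nppa in the Het-CKO hearts, where replicate 3 was highest in both, and their part in the Nppa difference was not tested. The Nppa call ended with single arrays left out, Nppa without Het-CKO replicate 1 or 2 or any Hom-CKO replicate (adjusted p 0.0516 to 0.166), and with Xist as a covariate, Nppa (0.0571).

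Transcription factors and signalling genes made up a second set of the largest rises. Tbx15, a T-box factor, read 2.47, 1.64 and 1.28 in Hom-CKO hearts against 0.360, 0.318 and 0.342 in Het-CKO hearts (2.35, standard error 0.28, adjusted p = 0.0622 by the methods' t-test). Egr2, a zinc finger factor of the immediate early class, read 13, 8.89 and 3.87 against 1.76, 2.52 and 2.94 (1.70, standard error 0.38, adjusted p = 0.0219). Its lowest Hom-CKO heart lay close to the highest Het-CKO heart. Myc, a driver of growth, read 3.36, 2.66 and 2.23 against 0.762 and 1.16 in Het-CKO replicates 2 and 3, the spot of replicate 1 being left out (1.53, standard error 0.27, adjusted p = 0.00576). Prkcd, which encodes protein kinase Cδ, separated far more tightly, with 12.2, 11.6 and 12.5 against 3.93, 4.24 and 4.26 (1.55, standard error 0.08, adjusted p = 5.79e-08). The calls of Egr2 and Myc did not hold with every array left out, Egr2 without Het-CKO replicate 1 or 2 or Hom-CKO replicate 1 or 2 (adjusted p 0.0690 to 0.129) and Myc without Het-CKO replicate 2 (adjusted p = 0.103). With the replicate number as a block the adjusted p of Myc (0.0865) was over the threshold, and with Xist as a covariate that of Egr2 (0.0587). By the methods' t-test the adjusted p was 0.234 for Egr2 and 0.165 for Myc.

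Other large rises were in genes with little known role in the heart. Epb41l4aos, a transcript from the strand opposite Epb41l4a, read 30.4, 35.1 and 32.3 in Hom-CKO and 5.33, 5.83 and 5.88 in Het-CKO hearts (2.52, standard error 0.19, adjusted p = 1.48e-06). Syn2, known as a synaptic vesicle protein, rose at 2 of its 5 probes, with 2.58, 3.36 and 3.07 against 0.718, 0.857 and 0.716 at the brighter one (1.97, standard error 0.14). Mfsd4b5, of a family of membrane transporters, read 1.66, 1.23 and 1.28, and the Het-CKO hearts were all at the floor of 0.318, so that its fold is a bound. Scgb1c1, a secretoglobin, read 16.4, 20.5 and 18.5 against 6.29, 6.01 and 6.10. The liver-type methyltransferase gene Bhmt2 read 19.7, 15.9 and 16.5 against 6.69, 6.16 and 6.08, and the Kelch-domain gene Klhdc7a 2.21, 2.80 and 2.74 against 0.958, 0.948 and 0.966. At these 6 genes the arrays of the groups did not overlap, which the choice of the largest rises required. The remaining places were taken by Tmem130, Tmem171, Gm16973, 5830418P13Rik and 1500009L16Rik, with log2 fold changes of 1.46 to 1.52. Only 1 Het-CKO heart gave a value for 1500009L16Rik, and its test assumes that this heart varies like those of the other groups.

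**Figure D1:**
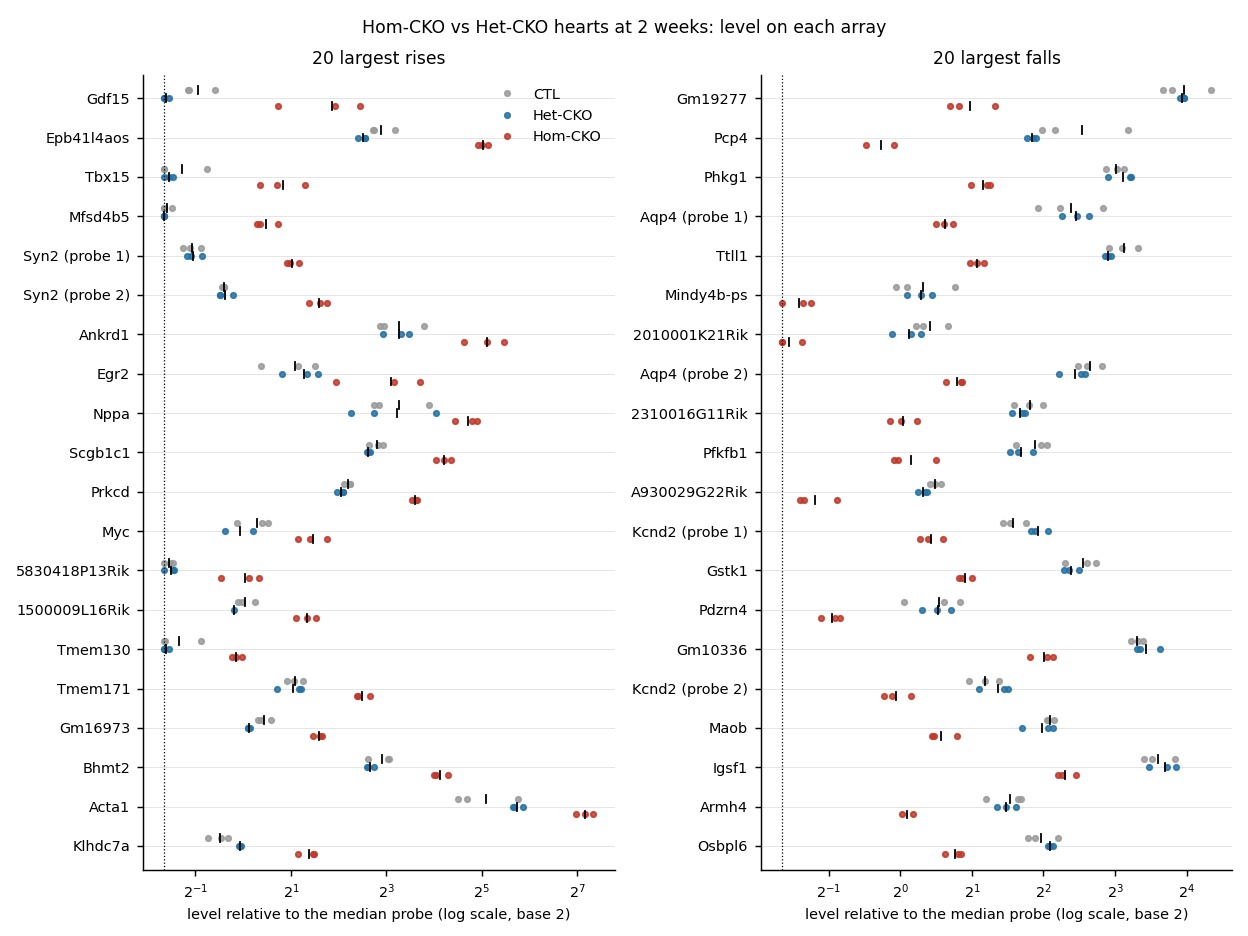
Level on each array (log axis, relative to the median probe) of the probes with the 20 largest rises and 20 largest falls in Hom-CKO (red) vs. Het-CKO (blue) hearts at 2 weeks, with CTL hearts in grey, group means as black ticks and the floor of 0.318 as a dotted line. Red and blue points do not overlap in any row, which the choice of these genes required, and the spread within a group is wide in Gdf15 (1.65 to 5.45 in Hom-CKO) and Nppa (4.80 to 16.4 in Het-CKO).

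Among the 20 largest falls Gm19277, a predicted gene without a known function, read 1.62, 1.76 and 2.50 in Hom-CKO hearts against 14.9, 15.5 and 15.6 in Het-CKO hearts (a log2 fold change of -3.0, standard error 0.19, adjusted p = 3.23e-07). Pcp4, a small peptide that binds calmodulin, read 0.937 and 0.716 in Hom-CKO replicates 1 and 2, with replicate 3 left out, against 3.40, 3.62 and 3.73 (-2.13, standard error 0.38, adjusted p = 0.00520). Kcnd2, a subunit of the channel for the transient outward potassium current that ends the early phase of the action potential, was lower at 3 of its 7 probes. The brightest of them read 3.50, 4.96 and 3.80 against 9.94, 10.4 and 8.39 (-1.24, standard error 0.14, adjusted p = 0.000106). The water channel Aqp4 was lower at both probes, with 1.56, 1.81 and 1.80 against 4.64, 5.99 and 5.73 at the brighter one (-1.65, standard error 0.18, adjusted p = 6.78e-05). Every Hom-CKO heart with a value was below every Het-CKO heart at these probes, and the choice of the 20 largest falls required such a separation. The call ended for Pcp4 without Hom-CKO replicate 2 (adjusted p = 0.0658).

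Several metabolic enzymes were also among these falls. Phkg1, the catalytic subunit of muscle phosphorylase kinase, which starts glycogen breakdown, read 1.99, 2.32 and 2.38 in Hom-CKO and 7.46, 9.32 and 9.21 in Het-CKO hearts (-1.96, standard error 0.13, adjusted p = 3.23e-07). Pfkfb1, which sets the level of the glycolytic activator fructose 2,6-bisphosphate, read 0.980, 0.938 and 1.42 against 2.89, 3.13 and 3.62. Gstk1, a glutathione transferase of mitochondria and peroxisomes, read 2.01, 1.82 and 1.76 against 4.90, 5.14 and 5.64 (-1.49, standard error 0.11, adjusted p = 1.34e-06). Maob, the amine-degrading oxidase of the outer mitochondrial membrane, read 1.36, 1.38 and 1.73 against 3.24, 4.39 and 4.18. Of the cytoskeleton, Ttll1, a tubulin polyglutamylase, read 1.97, 2.24 and 2.10 against 7.67, 7.24 and 7.45, an even loss (-1.83, standard error 0.11, adjusted p = 1.69e-07). The other places among the falls belonged to Igsf1, Osbpl6, Pdzrn4, Armh4, the pseudogene Mindy4b-ps and 4 transcripts named only by clone or gene model besides Gm19277, with log2 fold changes of -1.70 to -1.34. Probes without a single gene symbol, 37 of those called higher and 64 of those called lower, include 4 as large as the last of the 20 rises and 2 as large as the last of the 20 falls.

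Of the gene lists that describe protein turnover, the core of the cullin-RING system gave no call. Of 25 genes for cullins, their core partners and the neddylation enzymes, 0 were called, and their median change was 0.04. Among the substrate receptors the calls were few and ran both ways. Of 63 F-box genes, 2 fell, and the median was 0.02. Fbxw7, which brings growth regulators such as Myc and cyclin E to the SCF ligase, read 10.1, 11.7 and 11.1 in Hom-CKO and 16.3, 17.1 and 17.4 in Het-CKO hearts (-0.63, standard error 0.15, adjusted p = 0.0339). The other, Fbxo10, changed by -0.41. Fbxo31, a member not called at its brightest probe, fell at another (2.97, 2.74 and 3.30 against 4.78, 5.10 and 4.88). Of 35 SOCS-box and VHL-box genes only Spsb4 was called, with 17.0, 18.8 and 14.9 against 9.75, 9.38 and 9.22 (0.83, standard error 0.20). Asb14, whose product has a SOCS box, was not called (-0.19, adjusted p = 0.439). The calls of these receptors ended with single arrays left out, Fbxw7 without any 1 of the 6 arrays (adjusted p 0.0686 to 0.162), Fbxo10 and Spsb4 without any Het-CKO replicate or Hom-CKO replicate 1 or 2 (adjusted p 0.0784 to 0.117) and Fbxo31 without Het-CKO replicate 2 or Hom-CKO replicate 2 (adjusted p 0.0561 to 0.0562), as did that of Myc without Het-CKO replicate 2 (adjusted p = 0.103). With the replicate number as a block the adjusted p was over the threshold for Fbxw7 (0.0601), Spsb4 (0.0545) and Myc (0.0865), and with Xist as a covariate for Fbxw7 (0.0940), Fbxo10 (0.0873), Fbxo31 (0.0598) and Spsb4 (0.141).

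The BTB-Kelch and Kelch-domain genes, many of which are receptors of cullin 3 ligases, held larger changes, with 3 of 55 higher and 3 lower and a median of -0.03. Besides Klhdc7a, Rhobtb2 rose (4.08, 3.78 and 3.90 against 2.69, 2.94 and 2.93), as did Ivns1abp, with 1 Het-CKO spot left out. Klhl41, a Kelch protein of the sarcomere, fell from 30.7, 31.1 and 31.4 in Het-CKO to 14.4, 16.8 and 15.9 in Hom-CKO hearts (-0.99, standard error 0.13, adjusted p = 0.000438). Rhobtb1, the close relative of Rhobtb2, moved the other way at both of its probes, with 18.4, 16.1 and 14.7 against 28.2, 32.0 and 33.9 at the brighter. Klhdc1 fell as well (-0.65, standard error 0.09). Of 43 proteasome genes only the activator subunit Psme1 was called (15.2, 15.0 and 15.0 against 24.3, 22.0 and 22.0), of 49 autophagy and lysosome genes only Pik3r4, a subunit of the VPS34 lipid kinase (-0.50), and of 20 muscle ubiquitin ligases and ubiquitin genes only Trim54, a sarcomere ligase (0.68). The lists had medians of 0.04, 0.00 and 0.06. The following did not pass when arrays were left out one at a time, Ivns1abp without Het-CKO replicate 2 or 3 or any Hom-CKO replicate (adjusted p 0.0555 to 0.169), Psme1 without any 1 of the 6 arrays (adjusted p 0.0509 to 0.0769), Pik3r4 without Het-CKO replicate 3 or Hom-CKO replicate 2 (adjusted p 0.0584 to 0.0622) and Trim54 without any Het-CKO replicate or Hom-CKO replicate 1 or 2 (adjusted p 0.0580 to 0.0780). The block on the replicate number ended the call of Ivns1abp (0.216), and Xist as a covariate those of Psme1 (0.0550) and Trim54 (0.0840).

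Membrane traffic and the cytoskeleton gave calls at a few genes each. Of 91 genes of vesicle trafficking and exocytosis 5 rose and 0 fell, with a median of 0.03. Rin1, an activator of the endosomal GTPase Rab5, read 2.14, 2.31 and 1.72 in Hom-CKO and 1.15, 0.984 and 0.867 in Het-CKO hearts (1.04, standard error 0.13, adjusted p = 0.000214). The others, Stxbp2, Syt11, Lman1l and Arf3, rose by 0.34 to 0.78. Of 40 endocytosis and caveolar genes 0 were called, with 4 under an unadjusted p of 0.05, as were 2779 of the 16613 genes tested. Of 79 genes of microtubules and motors 3 rose and 3 fell, with a median of 0.03. The tubulin-modifying enzymes were split, since Ttll1 fell while Ttll7, which glutamylates β-tubulin, rose from 0.827, 0.820 and 0.872 to 1.55, 1.27 and 1.46, and Vash2, a tubulin detyrosinase, from 0.622, 0.604 and 0.582 to 1.06, 1.06 and 1.21. Mical3 rose by 0.68. Tppp, which promotes tubulin polymerization, fell from 4.02, 4.83 and 4.53 to 2.00, 2.18 and 2.26 (-1.05, standard error 0.11, adjusted p = 6.11e-05). The kinesin Kif12 fell by 0.73, but its CTL level was 2.32 ± 0.189 (SD, n = 3) and Het-CKO hearts were above CTL (1.19, adjusted p = 0.000388), so here the Het-CKO hearts stood apart from both other groups. In the vesicle list single arrays ended calls, Stxbp2 and Lman1l without any 1 of the 6 arrays (adjusted p 0.0553 to 0.196), Syt11 without any Het-CKO replicate or Hom-CKO replicate 2 or 3 (adjusted p 0.0626 to 0.109) and Arf3 without Het-CKO replicate 1 or 2 or Hom-CKO replicate 1 or 2 (adjusted p 0.0508 to 0.0998), and the block on the replicate number did so for Stxbp2 (0.0636) and Lman1l (0.0805). With Xist as a covariate 1 of the 5 was called, the losses being Stxbp2 (0.164), Syt11 (0.124), Lman1l (0.112) and Arf3 (0.0571). In the nucleus, 3 of 53 histone and chromatin genes fell and 0 rose, with a median of 0.00. They were the linker histone genes H1f2 (2.30, 2.92 and 3.33 in Hom-CKO against 5.01, 5.88 and 5.50 in Het-CKO) and H1f0 (-0.46) and the core histone gene H2bc18 (-0.60). Of these calls, those that ended with arrays left out were H1f0 without Het-CKO replicate 2 or 3 or Hom-CKO replicate 1 or 2 (adjusted p 0.0862 to 0.132) and H2bc18 without Het-CKO replicate 3 or Hom-CKO replicate 1 (adjusted p 0.0569 to 0.0690), and Xist as a covariate ended that of H1f0 (0.105).

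**Figure D2:**
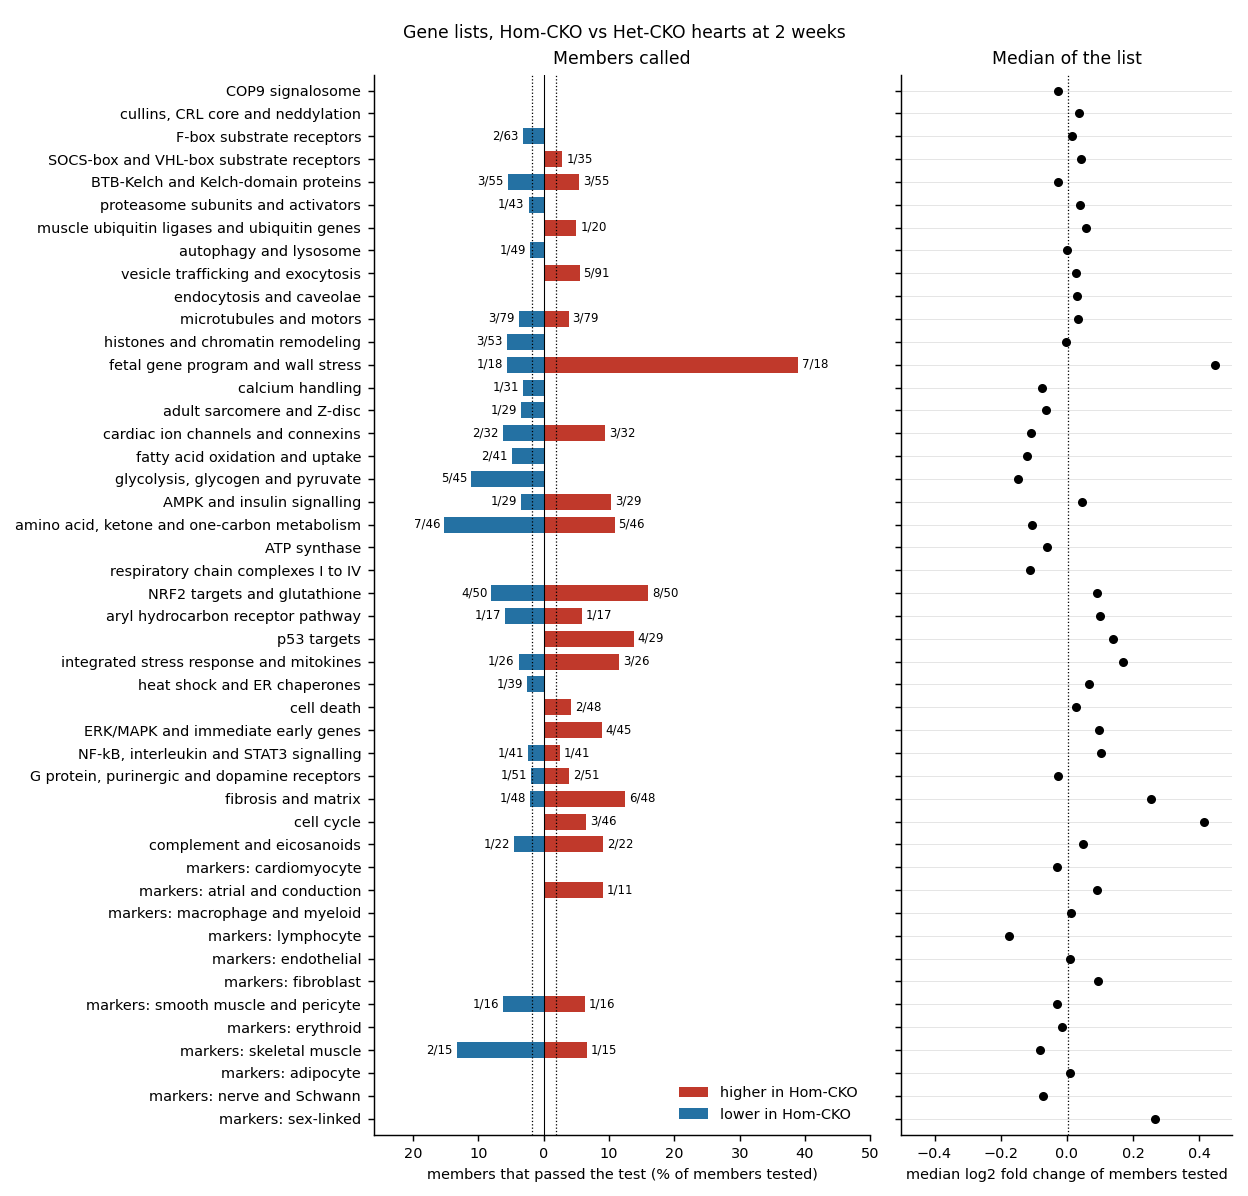
Share of tested members of each list that passed the test in Hom-CKO vs. Het-CKO hearts at 2 weeks (bars to the right, higher; to the left, lower; counts printed beside them; dotted lines, the shares of all genes, 1.86% and 1.87%) and the median log2 fold change of the members (points). The fetal program has 7 of 18 higher and a median of 0.45, the cell cycle list has a median of 0.41 with 3 of 46 called, and the lists of cardiomyocyte, endothelial and macrophage markers have no bar.

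The fetal gene program and wall stress list had 7 of 18 members higher, 1 lower and a median of 0.45, against 1.86% and 1.87% and a median of 0.00 over all genes. The study had already named Nppa, Nppb, Acta1, Ankrd1, Cilp and Tnni1 as higher on these arrays, so this share was partly fixed in advance. The 7 became 2 to 4 with 1 array left out, 6 with the replicate block, 4 with Xist as a covariate and 1 with the methods' t-test. Besides Nppa, Ankrd1 and Acta1, the rises were Nppb, the gene of brain natriuretic peptide (152, 116 and 97.4 in Hom-CKO against 59.4, 54.1 and 50.8 in Het-CKO), Cilp, a matrix protein of the strained heart (6.55, 6.01 and 5.93 against 2.09, 2.13 and 3.30), Rcan1, a calcineurin target and regulator (1.02), and Tnni1, the fetal slow-skeletal troponin I (2.94, 2.38 and 3.90 against 1.30, 1.03 and 1.61). For Tnni1 the Het-CKO hearts were below CTL hearts (log2 difference -1.47, adjusted p = 0.0367), and the 2 CTL hearts with a value, at 4.00 ± 2.50 (SD, n = 2), spanned the level of the Hom-CKO hearts. Myh7, the β-myosin heavy chain, rose at a dim probe from the floor on all 3 Het-CKO arrays to 0.559, 0.529 and 0.438, where its fold is a bound. Acta2, smooth muscle actin, which is also in this list, fell at both probes (56.2, 63.9 and 64.6 against 106, 119 and 99.4 at the brighter). The calls that ended without single arrays were Nppb without Het-CKO replicate 2 or 3 or Hom-CKO replicate 1 (adjusted p 0.0557 to 0.0823), Nppa without Het-CKO replicate 1 or 2 or any Hom-CKO replicate (adjusted p 0.0516 to 0.166), Acta1 without any 1 of the 6 arrays (adjusted p 0.0564 to 0.129), Rcan1 and Myh7 without any Het-CKO replicate or Hom-CKO replicate 1 or 2 (adjusted p 0.0809 to 0.166), Tnni1 without any Het-CKO replicate or Hom-CKO replicate 1 or 3 (adjusted p 0.0532 to 0.174), Acta2 without Het-CKO replicate 2 or Hom-CKO replicate 1 (adjusted p 0.0772 to 0.0797) and Acta2 without Het-CKO replicate 2 or 3 or any Hom-CKO replicate (adjusted p 0.0661 to 0.242). The block on the replicate number ended those of Acta1 (0.0591), Myh7 (0.0521) and Acta2 (0.139), the last at its dimmer probe. Xist as a covariate ended those of Nppa (0.0571), Acta1 (0.124), Rcan1 (0.0896), Tnni1 (0.0983), Myh7 (0.0608) and Acta2 (0.0639), the last again at its dimmer probe.

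The promoter of Acta1 holds a CArG box, the site bound by serum response factor, and this is the only promoter with one among the 8 list members called higher at any probe that have a promoter window of 250 bases before to 50 after the start in the RefSeq table. The box was found in 3 of 19 list members and in 1.81% of 27025 genes with a window. It is shown because it is the one sequence feature found at a gene of this group that rose, with the box in capitals, 5′ to 3′ on the strand of the gene, from -73 to -64 relative to the start (GRCm38.p6 chr8:123894829-123894858, minus strand). The match describes the letters only.
Acta1: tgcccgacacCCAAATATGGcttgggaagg

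The adult machinery of contraction gave few calls. An unadjusted p under 0.05 was found for 8 of 29 sarcomere and Z-disc genes (7 lower) and 7 of 31 calcium handling genes (6 lower). Among all 16613 genes it was found for 2779, of which 1435 were lower. The medians of the 2 lists were -0.06 and -0.08. Of 29 sarcomere and Z-disc genes, 1 was called, Tcap, the titin cap, lower (60.0, 74.4 and 73.1 in Hom-CKO against 87.7, 99.5 and 95.2 in Het-CKO), and of 31 calcium handling genes only Pcp4. Tpm1, α-tropomyosin, read 124, 111 and 76.8 against 160, 156 and 128 without passing the test (-0.53, adjusted p = 0.0815). Pln, phospholamban, read 326, 349 and 384 against 383, 384 and 422 (-0.17, adjusted p = 0.521). Atp2a2, the calcium pump of the sarcoplasmic reticulum, read 521, 587 and 521 against 521, 485 and 471, with 2 and 3 of these spots saturated. Of 32 cardiac ion channels and connexins 3 rose and 2 fell, Kcnd2 and Aqp4 being the falls. Kcne1, the partner of the slow delayed rectifier channel, read 8.25, 7.84 and 8.44 against 3.49, 2.82 and 3.56 (1.32, standard error 0.21, adjusted p = 0.00177). The water channel Aqp8 rose by 1.02. The calls that ended with arrays left out were Tcap without Het-CKO replicate 2 or 3 or Hom-CKO replicate 1 (adjusted p 0.0965 to 0.155), Aqp8 without Het-CKO replicate 2 or Hom-CKO replicate 1 (adjusted p 0.0649 to 0.0658) and Pcp4 without Hom-CKO replicate 2 (adjusted p = 0.0658).

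Of 45 genes of glycolysis, glycogen and pyruvate 5 fell and 0 rose, with a median of -0.15. Fbp2, muscle fructose-1,6-bisphosphatase, read 3.78, 4.15 and 4.09 in Hom-CKO and 8.09, 10.2 and 8.69 in Het-CKO hearts (-1.16, standard error 0.17, adjusted p = 0.000856). Slc16a10, a carrier of aromatic amino acids of the monocarboxylate transporter family, read 0.794, 0.908 and 0.810 against 1.70, 1.99 and 1.91, and Ppp1r3d, which targets a phosphatase to glycogen, 9.30, 8.53 and 8.75 against 13.6, 13.4 and 13.2. With Phkg1 and Pfkfb1 these are the 5 falls. Of 41 genes of fatty acid oxidation and uptake 2 fell, Etfb (38.3, 36.4 and 35.8 against 52.2, 53.6 and 46.1) and Hadh (36.8, 40.7 and 40.4 against 48.6, 53 and 51.1), and 36 of the 41 had a log2 fold change below 0 (median -0.12). Of 57 genes of the respiratory chain 0 were called and 49 were below 0, with a median of -0.11, and of 17 ATP synthase genes 0 were called, 13 of them below 0. Over all genes tested 8075 of 16613 were below 0. Etfb and Hadh did not keep their calls in the fits of Etfb without Het-CKO replicate 1 or 2 or any Hom-CKO replicate (adjusted p 0.0619 to 0.125) and Hadh without Het-CKO replicate 2 or 3 or Hom-CKO replicate 1 (adjusted p 0.0822 to 0.126), nor with Xist as a covariate, Etfb (0.0702) and Hadh (0.0616).

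Amino acid and one-carbon metabolism held 12 calls among 46 genes, 5 higher and 7 lower, with a median of -0.11. The 7 lower became 3 to 5 with 1 array left out and 2 with Xist as a covariate, and the 5 higher 3 to 4 and 3. Mthfd2, a mitochondrial folate enzyme, rose from 2.10 and 2.34 in Het-CKO replicates 1 and 3 to 3.34, 3.17 and 3.48, and Aldh1l2, another, fell from 1.55, 1.69 and 1.80 to 0.955, 1.08 and 1.04 (-0.71, standard error 0.09, adjusted p = 0.000288). The cytosolic serine enzyme Shmt1 rose from 0.853, 0.820 and 0.796 to 1.52, 1.42 and 1.71 (0.91, standard error 0.13, adjusted p = 0.000611). The nicotinamide riboside kinase Nmrk2, a muscle source of NAD, read 8.50, 7.38 and 5.06 against 3.34, 2.59 and 2.52 (1.29, standard error 0.23, adjusted p = 0.00520). In contrast Nampt, the main NAD salvage enzyme, read 9.93, 9.07 and 10.3 against 15.0, 14.4 and 13.8 (-0.56, standard error 0.11, adjusted p = 0.00878). Ido1, the tryptophan-degrading dioxygenase, rose at a low level (2.26, 2.61 and 1.65 against 1.05, 0.838 and 1.48). Both subunit genes of methylcrotonyl-CoA carboxylase, an enzyme of leucine breakdown, fell, Mccc2 (10.8, 12.3 and 12.6 against 15.9, 18.6 and 18.4) and Mccc1 (-0.54). Dbt, a subunit of the branched-chain ketoacid dehydrogenase, fell by 0.43. The histamine methyltransferase Hnmt also fell (0.908, 0.952 and 1.13 against 1.94, 2.10 and 2.06), as did Maob. Of 29 genes of AMPK and insulin signalling 3 rose and 1 fell. They were Prkag3, a muscle γ subunit of AMPK (2.69, 2.47 and 2.08 against 1.01, 1.03 and 0.891), Igf1 (4.76, 4.23 and 5.41 against 2.64, 2.94 and 2.68), Irs1, the insulin receptor substrate (103, 96.4 and 98.3 against 60.7, 61.2 and 65.4), and the receptor inhibitor Grb14, which fell by 0.51. Calls ended on leaving out arrays for Mthfd2, Hnmt, Dbt and Grb14 without any 1 of the 6 arrays (adjusted p 0.0561 to 0.255), Ido1 without Het-CKO replicate 1 or 2 or Hom-CKO replicate 1 or 2 (adjusted p 0.102 to 0.168), Mccc2 without Het-CKO replicate 2 or 3 or Hom-CKO replicate 1 (adjusted p 0.0710 to 0.0895) and Mccc1 without Het-CKO replicate 2 or 3 or Hom-CKO replicate 2 (adjusted p 0.0549 to 0.0671), and with the replicate number as a block for Ido1 (0.0616), Hnmt (0.0618), Dbt (0.0509) and Grb14 (0.0549). With Xist as a covariate the adjusted p was over the threshold for Mthfd2 (0.166), Nampt (0.0632), Ido1 (0.0519), Hnmt (0.147), Mccc2 (0.0547), Mccc1 (0.0702), Dbt (0.130) and Grb14 (0.0897).

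**Figure D3:**
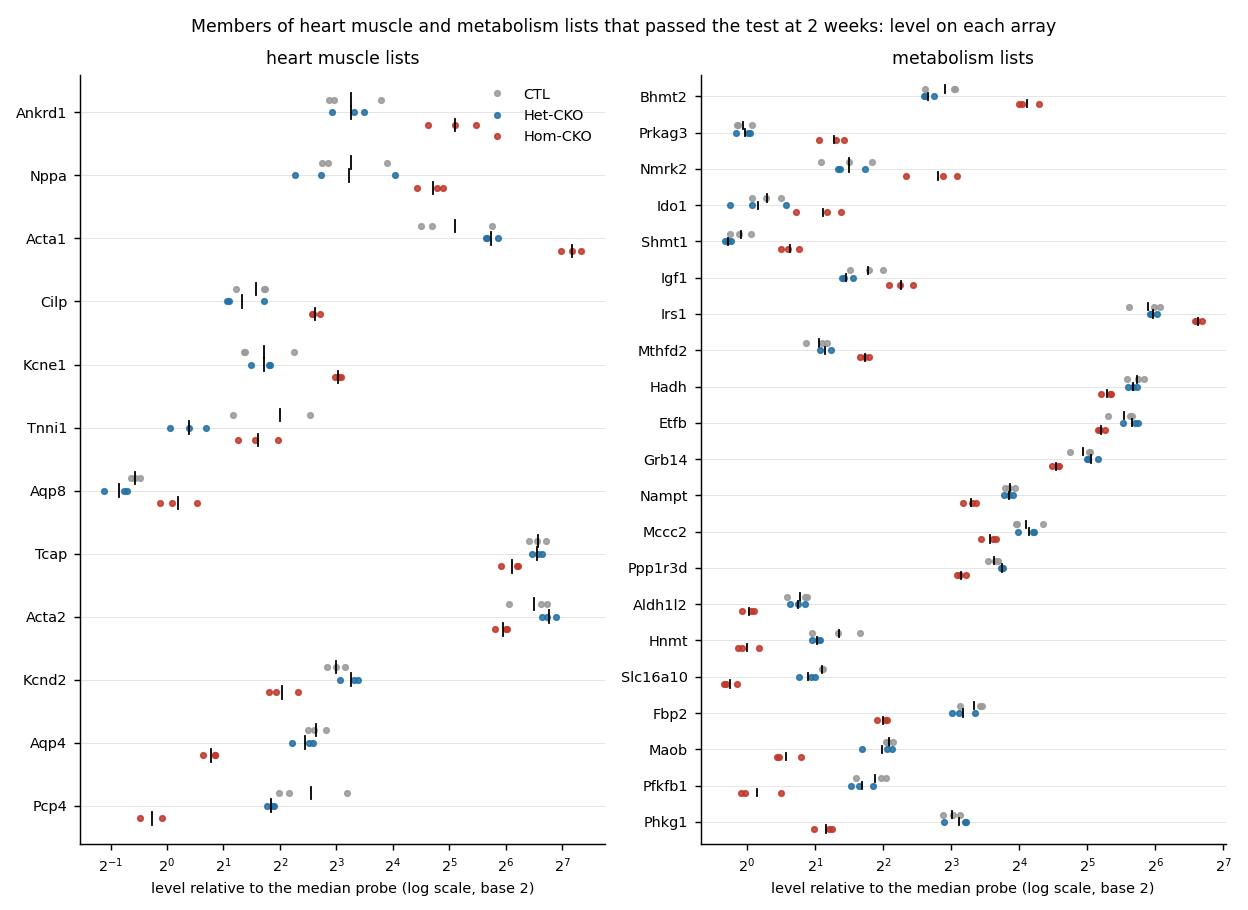
Level on each array (log axis, relative to the median probe) of members of the heart muscle and metabolism lists that passed the test, at most 5 per list and direction and without a member that is not reported here, in CTL (grey), Het-CKO (blue) and Hom-CKO (red) hearts at 2 weeks, with group means as black ticks. Red and blue points are apart in every row, as at every probe called. For Tnni1 both CTL hearts with a value (4.00 ± 2.50, SD, n = 2) lie above the Het-CKO hearts (1.03 to 1.61).

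Among stress responses, the targets of NRF2, the factor that induces antioxidant and detoxifying genes and is itself held down by a Kelch receptor of a cullin 3 ligase, had 8 of 50 members higher and 4 lower, with a median of 0.09. Nqo1, the quinone reductase taken as its standard target, read 7.31, 7.24 and 6.91 in Hom-CKO and 3.30, 3.27 and 3.92 in Het-CKO hearts (1.04, standard error 0.10, adjusted p = 1.71e-05), and its other probe rose as well. Ephx1, an epoxide hydrolase, read 7.31, 6.98 and 6.83 against 3.65, 4.19 and 3.86, and Txnrd1, thioredoxin reductase, 7.66, 8.04 and 6.97 against 4.45, 4.56 and 4.67. Gclc, which catalyses the rate-limiting step of glutathione synthesis, rose by 0.62 (standard error 0.10, adjusted p = 0.00153). These 4 calls held without any 1 array. The others higher were Srxn1 (0.54), Prdx6 (0.49), Gpx1 (0.43) and Gpx3 (0.33). The members lower were Gstk1, Gstm7 (1.67, 1.47 and 1.44 against 3.16, 2.90 and 3.00), the NADPH-forming Idh1 (8.04, 8.76 and 9.34 against 12.7, 12.7 and 12.2) and the carbonyl reductase Cbr1 (-0.47). Of 17 genes of the aryl hydrocarbon receptor pathway, Nqo1 rose and Nrip1 fell (-0.56), the latter with Het-CKO above CTL hearts (0.68, adjusted p = 0.0284). Calls ended in the fits of Srxn1 without Het-CKO replicate 2 or 3 or Hom-CKO replicate 1 or 2 (adjusted p 0.0617 to 0.125), Gpx1 without any 1 of the 6 arrays (adjusted p 0.0983 to 0.154), Gpx3 without Het-CKO replicate 1 or 2 or any Hom-CKO replicate (adjusted p 0.0516 to 0.153), Cbr1 without Het-CKO replicate 2 or 3 or Hom-CKO replicate 1 (adjusted p 0.0609 to 0.0881) and Nrip1 without Het-CKO replicate 2 or 3 or any Hom-CKO replicate (adjusted p 0.0716 to 0.194), with the block for Gpx1 (0.0827) and with Xist as a covariate for Srxn1 (0.0830), Gpx1 (0.197) and Gpx3 (0.0729). The 8 members higher thus became 5 to 6 with 1 array left out and 5 with Xist as a covariate.

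The antioxidant response element, searched on both strands as TGACNNNGC, was present in 14 of 48 NRF2 list members with a promoter window and in 14.0% of all genes with one. Of the 6 members called higher that have a window, 2 hold it, Txnrd1 and Srxn1. The site of Txnrd1, shown as the one before the start of a called gene, lies from -92 to -84 with the element on the opposite strand (GRCm38.p6 chr10:82859104-82859132, plus strand). Capitals mark the element.
Txnrd1: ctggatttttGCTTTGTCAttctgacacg

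The p53 targets had 4 of 29 members higher and 0 lower, with a median of 0.14. Cdkn1a, the cell cycle inhibitor p21, read 13.8, 11.8 and 10.1 in Hom-CKO against 5.27, 5.09 and 5.40 in Het-CKO hearts (1.17, standard error 0.17, adjusted p = 0.000715). Phlda3, an inhibitor of AKT, read 7.46, 7.35 and 7.38 against 3.45, 3.30 and 3.92 (1.06, standard error 0.16, adjusted p = 0.000995). In both the Hom-CKO hearts lay above every Het-CKO and every CTL heart (5.40 ± 0.228 and 4.37 ± 1.24, SD, n = 3). Bax, which permeabilizes mitochondria in apoptosis, rose from 9.10, 8.57 and 8.44 to 14.5, 12 and 11.8, and the RNA-binding protein gene Zmat3 by 0.48. Aen, a nuclease of the same pathway, read 5.21, 4.94 and 4.80 against 2.94, 3.65 and 3.20 without passing (0.61, adjusted p = 0.135). In the cell death list, 2 of 48 were called, Bax and its opponent Bcl2, both higher (Bcl2: 6.37, 4.66 and 4.74 against 3.58, 3.64 and 3.14), and the median was 0.03. Of 26 genes of the integrated stress response and mitokines, besides Gdf15 and Mthfd2, Atf4, the factor at its centre, rose evenly from 70.3, 72.6 and 67.5 to 111, 101 and 102 (0.58, standard error 0.09, adjusted p = 0.00125), and Stc2 fell by 0.79. Its response element, TGATGNAAT, was found in 3 of 27 list members, in 0 of 3 called higher and in 1.08% of all genes with a promoter window. Of 39 heat shock and ER chaperone genes only Hspb2, a small heat shock protein of muscle, was called, lower by 0.41. The calls of these lists that ended without single arrays were Bax and Hspb2 without Het-CKO replicate 2 or 3 or Hom-CKO replicate 1 (adjusted p 0.0609 to 0.101), Zmat3 without Het-CKO replicate 1 or 2 or Hom-CKO replicate 1 or 3 (adjusted p 0.0516 to 0.0803), Bcl2 without any Het-CKO replicate or Hom-CKO replicate 1 (adjusted p 0.0773 to 0.190), Mthfd2 without any 1 of the 6 arrays (adjusted p 0.0702 to 0.255) and Stc2 without Hom-CKO replicate 1 (adjusted p = 0.0703). With Xist as a covariate those of Bax (0.0518) and Mthfd2 (0.166) ended.

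**Figure D4:**
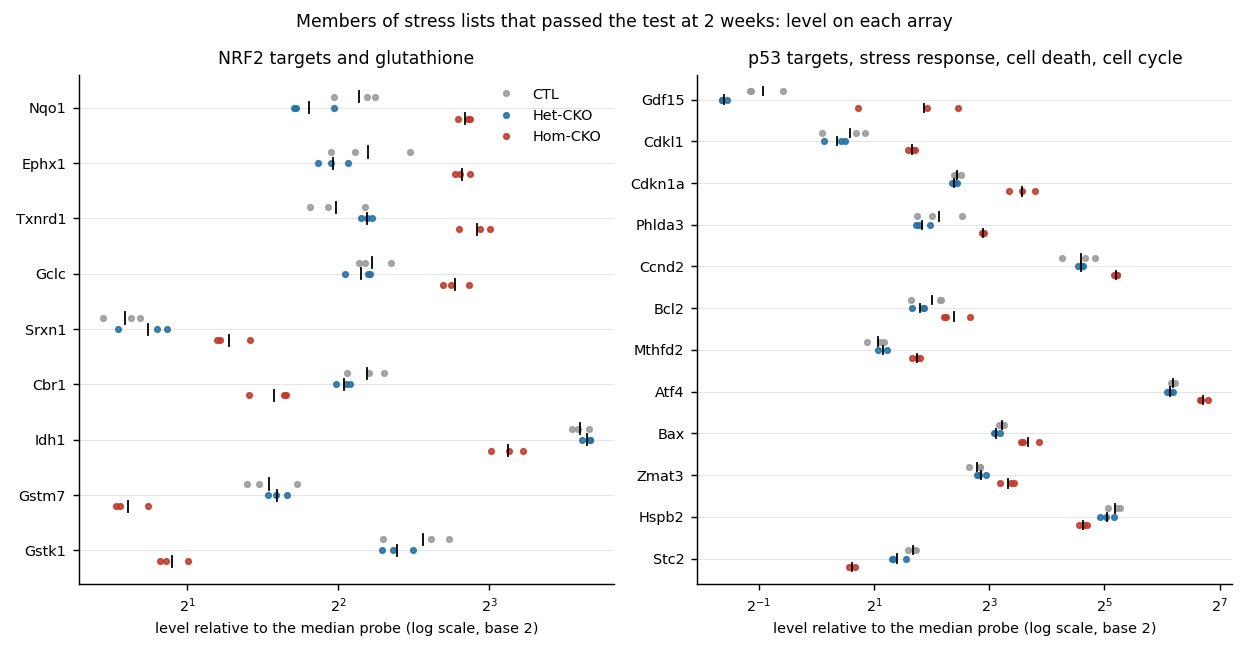
Level on each array (log axis, relative to the median probe) of members of the stress and cell cycle lists that passed the test, at most 5 per list and direction, in CTL (grey), Het-CKO (blue) and Hom-CKO (red) hearts at 2 weeks, with group means as black ticks. Nqo1 (6.91 to 7.31 in Hom-CKO, 3.27 to 3.92 in Het-CKO) and Atf4 (101 to 111 and 67.5 to 72.6) are tight, while Cdkn1a spreads from 10.1 to 13.8 in the Hom-CKO hearts.

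Signalling lists added few calls. Of 45 ERK/MAPK and immediate early genes 4 rose, Prkcd, Egr2, Myc and the phosphatase gene Dusp4 (0.49), and 0 fell, with a median of 0.10. Of 41 genes of NF-κB, interleukin and STAT3 signalling 1 rose, Timp1, and 1 fell, Lrg1, a secreted glycoprotein of acute inflammation (6.18, 7.63 and 7.65 in Hom-CKO against 13.4, 15.3 and 16.0 in Het-CKO, -1.06, standard error 0.19, adjusted p = 0.00416). Of 51 G protein, purinergic and dopamine receptor genes 2 rose and 1 fell. The fall was Rgs2, which switches off Gq signalling (28.6, 31.6 and 28.1 against 52.0, 55.7 and 46.7, -0.80, standard error 0.13, adjusted p = 0.00253). Among the rises was the dopamine receptor Drd2 (0.69), at a dim probe. Of 22 complement and eicosanoid genes 2 rose and 1 fell. Ptgds, prostaglandin D synthase, read 22.0, 25.5 and 24.4 against 11.8, 9.98 and 10.6 (1.15, standard error 0.19, adjusted p = 0.00276), Masp1 rose by 0.43, and Pla2g5, a secreted phospholipase, read 10.7, 12.6 and 12 against 18.9, 21.5 and 20.7. Calls that ended with arrays left out were Egr2 and Masp1 without Het-CKO replicate 1 or 2 or Hom-CKO replicate 1 or 2 (adjusted p 0.0690 to 0.171), Myc without Het-CKO replicate 2 (adjusted p = 0.103), Dusp4 without Het-CKO replicate 2 or 3 or any Hom-CKO replicate (adjusted p 0.0506 to 0.198), Timp1 without any 1 of the 6 arrays (adjusted p 0.0733 to 0.220) and Drd2 without any Het-CKO replicate or Hom-CKO replicate 2 or 3 (adjusted p 0.0615 to 0.197). The block on the replicate number ended the calls of Myc (0.0865) and Timp1 (0.0586), and Xist as a covariate those of Egr2 (0.0587), Dusp4 (0.0897), Timp1 (0.124), Drd2 (0.225) and Masp1 (0.0891).

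Of 48 genes of fibrosis and matrix 6 rose and 1 fell, with a median of 0.25, and 41 of the 48 had a log2 fold change above 0, as did 8379 of all 16613 genes. The 6 became 3 to 4 with 1 array left out and 3 with Xist as a covariate. Thbs4, a thrombospondin of the strained heart, read 14.1, 15.5 and 17.6 in Hom-CKO and 5.86, 5.31 and 6.45 in Het-CKO hearts (1.42, standard error 0.14, adjusted p = 2.47e-05). Col8a1, a short-chain collagen, read 2.52 and 2.28 in Hom-CKO replicates 1 and 2 against 1.12, 0.894 and 0.843 (1.34, standard error 0.18). Lox, which crosslinks collagen, read 4.71, 4.05 and 5.03 against 2.88, 2.80 and 3.38 (0.61, standard error 0.11, adjusted p = 0.00512). The CTL hearts, at 4.01 ± 0.366 (SD, n = 3), lay above the Het-CKO hearts and reached into the range of the Hom-CKO hearts. The others were Timp1 (0.88), the proteoglycan Bgn (30.4, 34.2 and 33.6 against 21.8, 21.9 and 23.3) and Emilin1 (0.47). The fall was Emilin2, of the same family as Emilin1 (6.00, 5.77 and 6.25 against 12.4, 12 and 13). Fibroblast markers leaned the same way less strongly, with 14 of 19 above 0 and 5 below. Over the 17 of 19 with a value on all 9 arrays of this age the summed level was 799 to 878 in Het-CKO, 902 to 938 in Hom-CKO and 856 to 1021 in CTL hearts, and 0 of the 19 were called (median 0.09). Tcf21 and Pdgfra, the markers that define these cells, overlapped between the groups, with 34.8, 38.6 and 35.3 against 40.3, 34.9 and 33.4 for Tcf21, while Col1a1 read 22.6, 20.5 and 25.0 against 16.7, 14.8 and 16.1 (0.51, adjusted p = 0.120). Their part in the matrix result was not tested. Calls of this list ended in the fits of Timp1 and Bgn without any 1 of the 6 arrays (adjusted p 0.0599 to 0.220) and Emilin1 without Het-CKO replicate 3 or Hom-CKO replicate 1 (adjusted p 0.0618 to 0.0708), with the block for Timp1 (0.0586) and Bgn (0.0511) and with Xist as a covariate for Timp1 (0.124), Bgn (0.149) and Emilin1 (0.0675).

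The cell cycle list had few calls, with most of its members above 0. Of its 46 members 3 rose, Cdkn1a, the kinase gene Cdkl1 (3.18, 2.99 and 3.27 in Hom-CKO against 1.35, 1.41 and 1.09 in Het-CKO) and Ccnd2, cyclin D2 (37.2, 37.3 and 36.1 against 24.6, 24.4 and 23.4), and 0 fell. However 40 of the 46 were above 0, 17 had an unadjusted p under 0.05 with all 17 higher, and the median was 0.41. Over all 16613 genes 8379 were above 0, 1344 had an unadjusted p under 0.05 and were higher, and the median was 0.00. In Hom-CKO vs. CTL hearts the median of the list was 0.30. At 3 weeks it was -0.01. The call of Ccnd2 ended in the fits of Ccnd2 without Het-CKO replicate 3 (adjusted p = 0.0526) and with Xist as a covariate, Ccnd2 (0.0581).

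Few markers of cell types were called. Of 16 cardiomyocyte markers 0 were called, and their summed level was 2778 to 2845 in Hom-CKO and 2866 to 2897 in Het-CKO hearts, without overlap, and 2549 to 2876 in CTL hearts. A few very bright probes make up most of this sum. Among them Actc1 held the same value, 625, on every Hom-CKO array and on Het-CKO replicates 1 and 2, so the sum is a weak measure of cardiomyocyte content. Of 20 macrophage and myeloid, 18 endothelial, 7 erythroid, 6 adipocyte and 13 nerve markers 0 were called. The 18 macrophage and myeloid markers with a value on all 9 arrays of this age summed to 75.2 to 79.0 in Hom-CKO, 74.6 to 83.0 in Het-CKO and 72.0 to 128 in CTL hearts. Of 13 lymphocyte markers 0 were called, and the 8 with a value on all 9 arrays summed to 26.1 to 28.9 in Hom-CKO, 29.0 to 31.3 in Het-CKO and 25.5 to 30.8 in CTL hearts. Among smooth muscle markers Myl9 rose (52.4, 63.3 and 64.1 against 38.8, 45.0 and 47.4) and Acta2 fell, and among skeletal muscle markers Tnni2, fast troponin I, fell from 8.23, 8.90 and 9.21 to 2.99, 3.86 and 4.04 (-1.28, standard error 0.16, adjusted p = 0.000241) and Myl1 near the floor, while Acta1 rose. Leaving out arrays ended the calls of Myl9 without Het-CKO replicate 1 or 2 or Hom-CKO replicate 2 or 3 (adjusted p 0.0862 to 0.143), Myl1 without Het-CKO replicate 2 or 3 or Hom-CKO replicate 2 or 3 (adjusted p 0.0699 to 0.106), Acta2 without Het-CKO replicate 2 or Hom-CKO replicate 1 (adjusted p 0.0772 to 0.0797) and Acta1 without any 1 of the 6 arrays (adjusted p 0.0564 to 0.129), and the block those of Acta1 (0.0591) and, at its dimmer probe, Acta2 (0.139). Those of Myl9 (0.160), Myl1 (0.105), Acta1 (0.124) and Acta2 (0.0639), the last at its dimmer probe, ended with Xist as a covariate.

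Most of these changes were also called in the 3-week hearts, which are other animals. Of the 842 called probes 671, or 79.7%, were called in the same direction in Hom-CKO vs. Het-CKO hearts at 3 weeks, 347 of the 402 higher (86.3%) and 324 of the 440 lower (73.6%), where 7.50% and 6.87% of all probes tested were called higher and lower at that age. They made up 17.6% of the 3822 probes called at 3 weeks. Of the rest, 138 had the same sign without a call, 29 the opposite sign without a call and 4 the opposite sign with one. Both contrasts came from 1 fit and share 1 estimate of the spread per probe, which favours a call at both ages. With each age fitted on its own 6 arrays, 674 of the 1188 probes called at 2 weeks were called the same way at 3 weeks. By the methods' t-test it was 115 of 223. The changes tended to be larger in the older hearts, with 297 of the 402 rises and 243 of the 440 falls larger in size. The median went from 0.60 to 0.89 among the probes called higher and from -0.58 to -0.66 among those called lower. The test of the difference between the ages was passed by 308 probes (1.16% of 26568), of which 96 were called at 2 weeks. Of these 96, the change was larger at 3 weeks in 62 of 65 rises and 23 of 31 falls. The file headers place the 2 ages in separate scanner projects, so age cannot be told apart from project in this test. The sexes were also unequal at 3 weeks, in the opposite sense to 2 weeks. Xist was at the floor of 0.318 in all 3 Het-CKO hearts of that age and read 13.2, 0.318 and 14.6 in the Hom-CKO hearts. With Xist as a covariate the age difference was passed by 127 probes and 422 were called the same way at both ages, and the part of sex in these counts was not tested.

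Genes whose change grew included several of the stress and traffic genes above. The log2 fold change of Cdkn1a went from 1.17 to 2.64 (difference 1.47, adjusted p = 0.00440), that of Phlda3 from 1.06 to 2.09 (difference 1.03, adjusted p = 0.0330) and that of Tbx15 from 2.35 to 4.33 (difference 1.99, adjusted p = 0.0231). Ido1 went from 0.97 to 4.26 (difference 3.29, adjusted p = 6.75e-05) and Fbp2 from -1.16 to -2.56 (difference -1.40, adjusted p = 0.00715). For Gdf15 (3.31 and 4.85, adjusted p of the difference 0.167), Nppa (1.69 and 3.77, 0.111) and Nqo1 (1.04 and 0.79, 0.577) the difference did not pass. Mylk2, a myosin light chain kinase of skeletal muscle, was near the floor at 2 weeks in both groups (0.28, adjusted p = 0.176) and differed by 2.66 at 3 weeks (difference 2.38, adjusted p = 1.63e-07). As stated for each gene where it was first described, the 2-week calls of Ido1 without Het-CKO replicate 1 or 2 or Hom-CKO replicate 1 or 2 (adjusted p 0.102 to 0.168) and Nppa without Het-CKO replicate 1 or 2 or any Hom-CKO replicate (adjusted p 0.0516 to 0.166) ended with arrays left out, that of Ido1 (0.0616) with the block, and those of Ido1 (0.0519) and Nppa (0.0571) with Xist as a covariate.

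A few changes seen at 2 weeks were smaller or opposite in direction at 3 weeks. Pbx3, a homeobox factor, was lower by 0.60 at 2 weeks (adjusted p = 7.13e-05), with 0.353, 0.348 and 0.395 in Hom-CKO against 0.537, 0.561 and 0.558 in Het-CKO hearts, and differed by -0.01 at 3 weeks. Lrp11 went from -0.46 to 0.37, Dcstamp from -0.35 to 0.29 and Tmod3, a cap of actin filaments, from 0.40 to -0.37, and these with 1 probe without a gene symbol are the 4 called in opposite directions. Pif1, a DNA helicase, went from 0.66 to -0.10, Pde7b from -0.46 to 0.23 and Armh3 from -0.45 to 0.23. All 7 passed the age difference, which the choice of these genes required. The levels of Pbx3, Armh3 and Pif1 were close to the floor, and Pbx3, Armh3 and Dcstamp were higher in Het-CKO than in CTL hearts at 2 weeks (0.79, 0.51 and 0.52). Enkur, named after its values were seen because a spot of the Het-CKO group was left out, went from -1.72 to -0.68 (difference 1.04, adjusted p = 0.0176). The 2-week calls ended without single arrays for Lrp11 without Het-CKO replicate 2 or 3 or any Hom-CKO replicate (adjusted p 0.0574 to 0.154), Dcstamp and Armh3 without Het-CKO replicate 1 or 2 or any Hom-CKO replicate (adjusted p 0.0560 to 0.242) and Tmod3 and Pde7b without any 1 of the 6 arrays (adjusted p 0.0605 to 0.137), with the block for Tmod3 (0.0649) and Pde7b (0.0521) and with Xist as a covariate for Lrp11 (0.0797), Dcstamp (0.118), Tmod3 (0.152), Pde7b (0.158) and Armh3 (0.0616).

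**Figure D5:**
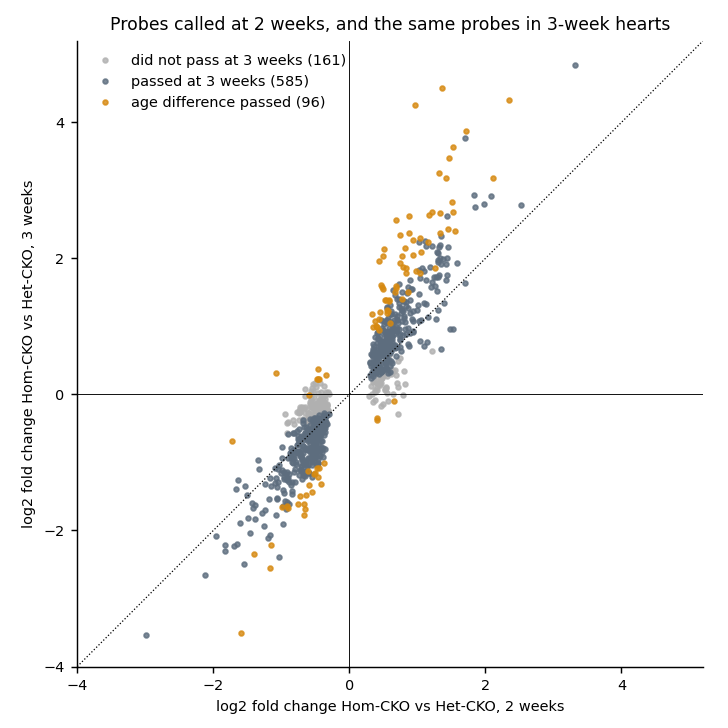
Log2 fold change in Hom-CKO vs. Het-CKO hearts at 2 weeks (x axis) and at 3 weeks (y axis, other animals) for the 842 probes called at 2 weeks. Orange marks the 96 probes that passed the test of the age difference, dark grey 585 further probes called at 3 weeks and light grey 161 that were neither. Most points lie beyond the dotted line of equal change, farther from 0 at 3 weeks.

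The same probes were set against CTL hearts, which carry no Cre. These comparisons share the Hom-CKO or the Het-CKO arrays with the main one, so their values are given side by side only. For the 402 probes called higher, the median was 0.50 in Hom-CKO vs. CTL and -0.14 in Het-CKO vs. CTL. For the 440 called lower it was -0.51 and 0.07. In Hom-CKO vs. CTL, where 3.02% of all probes were called, 222 of the higher and 250 of the lower probes were called in the same direction. In Het-CKO vs. CTL (1.64% called) 3 of the higher probes were called lower and 80 of the lower probes were called higher than CTL, while 0 and 1 moved the same way as in the main comparison. For those 80 probes, therefore, the Het-CKO hearts differed from CTL hearts too. Kif12, described above, and Myo5b, a myosin of recycling endosomes (0.417, 0.460 and 0.418 in Hom-CKO, 0.590, 0.710 and 0.563 in Het-CKO and 0.338 ± 0.0218 in CTL hearts, SD, n = 3), were 2 of them. Gdf15, Prkcd, Syn2, Phkg1, Ttll1, Cdkn1a and Nqo1 by contrast had Het-CKO vs. CTL differences between -0.65 and 0.10 that did not pass, beside Hom-CKO vs. CTL differences of 2.66, 1.40, 2.11, -1.86, -2.04, 1.13 and 0.70. Myo5b was not called without 1 array, Myo5b without Het-CKO replicate 2 or Hom-CKO replicate 1 or 3 (adjusted p 0.0531 to 0.0941).

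Of 116 genes that the study's text, tables and figures name, 110 were tested by probes here, of which 36 were higher, 36 lower and 38 not called. The study chose them on these arrays, so the count is no independent evidence. Parp6, a PARP family enzyme, had one of the smallest p-values of the comparison, with 13.2, 14.4 and 13.4 in Hom-CKO and 5.66, 5.68 and 5.82 in Het-CKO hearts (1.26, standard error 0.07, adjusted p = 1.69e-07). Other even changes were those of Lad1, a basement membrane anchor (1.00, 1.04 and 1.38 against 2.51, 2.96 and 3.02), Smco1 (2.17, 2.74 and 2.49 against 4.42, 4.95 and 5.30), Cryba4, known as a lens crystallin (4.00, 4.16 and 5.16 against 9.34, 10.9 and 11.3), and Lrrc8a, a subunit of the volume-regulated anion channel (14.1, 14.8 and 15.3 against 23.7, 25.2 and 25.7). Gipc2 rose (3.28, 2.62 and 2.67 against 1.28, 1.33 and 1.23), and so did Popdc3, a membrane protein of striated muscle (5.07, 4.94 and 4.31 against 2.43, 2.62 and 2.42). The 38 not called had log2 fold changes of -0.53 to 0.61 and adjusted p of 0.0562 or more. Among them, Ucp3, a mitochondrial carrier, read 7.21, 8.57 and 9.42 against 10.1, 12.2 and 10.8 (-0.39), Apln, the peptide apelin, 9.13, 9.94 and 7.71 against 10.4, 10.3 and 10.7 (-0.24), and Jade1 18.4, 18.2 and 17.0 against 20.2, 21.1 and 18.8 (-0.16). At 3 weeks these 3 differed by -2.14, -1.83 and -2.15, with the age difference passed by Apln (-1.60) and Jade1 (-1.99) and not by Ucp3 (-1.74, adjusted p = 0.0799). Syp (0.02, adjusted p = 0.991), Mphosph8 (-0.17, adjusted p = 0.607) and Asb14 (-0.19, adjusted p = 0.439) were not called at 2 weeks either. For the younger age the study lists Syp among its top falls and Mphosph8 among its top rises, both in Hom-CKO vs. Het-CKO hearts. It reports Asb14 as lower in Hom-CKO hearts and states that losing 1 Cops8 allele lowered it too. The study's ASB14 protein blots compared Hom-CKO with control hearts. The Asb14 value here sets Hom-CKO against Het-CKO hearts, so a fall shared by both groups would not show in it. Whether the same probes were read was not tested.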

How the data were processed

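The deposited intensity values of 18 CodeLink arrays were used, for which the authors' scanner software subtracted the local background median from the mean of the spot. The array design names the genes, and a genome build is not given in the sources used here. Control spots and spots flagged C, I or M were left out (2.17% to 2.57% of spots on the 6 arrays compared). Intensities were quantile normalized over the 18 arrays, divided by the median probe, held at a floor of 0.318 (the median over arrays of the 1st percentile of signals above background) and put on the log2 scale. Of 34967 discovery probes, 26606 exceeded background throughout 1 or more of the 6 groups, and a contrast was fitted for those with values in both of its groups. limma 3.58.1 in R 4.3.3 fitted 1 mean per group, with 3.56 prior degrees of freedom, and p-values were adjusted by Benjamini-Hochberg over all probes tested at a threshold of 0.05. The study's methods name quantile normalization and a t-test, which was run as an alternative, along with other backgrounds, scalings, filters, an intensity trend, array weights, Xist as a covariate and each array left out in turn. The fit was tested on simulated data with known changes.

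The text names all signalosome subunits, the 20 largest rises and 20 largest falls with 1 gene symbol (called, measured above background in all 3 hearts of the higher group, arrays apart), up to 5 called members per list and direction, up to 6 probes each way that also passed the age difference with a smaller change at 3 weeks, and genes the study names. List counts include 2 called members that are not reported here. Members and lists were chosen with earlier results of these data known. A list was read at the brightest probe of each gene. Same-numbered Hom-CKO and Het-CKO arrays deviated together, with correlations of 0.197, 0.178 and 0.131 over 15068 probes above background on all arrays, so the replicate number was treated as a pairing taken from the titles, and values with this block are given where it ended a call. The value table of the series, which holds the authors' median-scaled intensities, served as an alternative only. Promoter windows came from RefSeq (GRCm38.p6).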

Additional observations from a re-analysis of the deposited data

Results flagged for a closer look

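For 45 genes named by rule the change between Hom-CKO and Het-CKO hearts differed between 2 and 3 weeks by limma's test of the difference (adjusted p under 0.05), 37 of them called at 2 weeks and 8 not. The values here are the log2 fold change at 3 weeks minus that at 2 weeks. The file headers place the ages in separate scanner projects, and age cannot be told apart from project here. The sexes were unequal between the groups at both ages, in opposite senses, and their part was not tested.

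Among the largest rises the difference was 1.99 for Tbx15, 1.07 for Mfsd4b5, 0.85 for Prkcd, 2.12 for 5830418P13Rik, 1.32 for 1500009L16Rik, 2.01 for Tmem171 and 0.97 for Gm16973. The 2-week change of Mfsd4b5 is a bound, since its Het-CKO hearts were at the floor, and for 1500009L16Rik the Het-CKO group at 2 weeks held 1 heart, assumed to vary like the other groups. It was -0.94 for Maob, one of the largest falls.

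Among list members it was 1.26 for Rin1, 1.62 for Lman1l, 0.91 for Mical3, 3.29 for Ido1, 0.84 for Srxn1, 1.47 for Cdkn1a, 1.03 for Phlda3, 1.87 for Drd2 and 1.53 for Masp1, all higher at 2 weeks and more so at 3 weeks. It was -0.63 for Hadh, -1.40 for Fbp2 and -1.05 for Slc16a10, all lower at 2 weeks and more so at 3 weeks.

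For the genes chosen because their change was smaller or opposite at 3 weeks it was -0.77 for Pif1, -0.78 for Tmod3, 0.58 for Pbx3, 0.83 for Lrp11, 0.69 for Pde7b, 0.68 for Armh3 and 0.64 for Dcstamp. Among genes the study names and that were called at 2 weeks it was -0.78 for Cmss1, -0.86 for Lrrc8a, -0.66 for Smco1, 0.61 for Parp6, 1.09 for Gipc2, 1.75 for Auh, 1.04 for Ndufa3, 1.48 for Star, 1.11 for Popdc3 and 1.55 for Fam20a. Among those not called at 2 weeks it was 2.38 for Mylk2, -1.99 for Jade1, -1.60 for Apln, 2.05 for Slc22a4, 1.85 for Baalc, 0.96 for Tnfsf18, 0.97 for Tnfrsf23 and 1.07 for Tnfrsf18.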

How the results depend on the processing

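Of the 161 named probes called, 0 reversed under any of 20 other settings, 97 stayed called without each array in turn, and 50 stayed called under every setting (96 under every setting but the methods' t-test). The count of 842 called probes became 3029 with array weights and 223 with the methods' t-test after Benjamini-Hochberg adjustment, 401 to 612 with 1 array left out, 694 with the replicate block (662 of them shared) and 644 with median scaling, where 57.1% were higher against 47.7%. The 308 probes of the age difference became 127 with Xist as a covariate, 913 with array weights and 157 to 205 with 1 array left out. The 671 probes called the same way at both ages became 422 with Xist as a covariate and 1763 with array weights. They became 365 to 492 with 1 array left out, 115 (of 223) with the methods' t-test and 674 (of 1188) with each age fitted apart. The replicate block ended 21 named calls and Xist as a covariate 46, and the cause was not tested. Of 50 named probes not called, 11 passed under at least 1 setting. Each group had 3 hearts, sex was unequal between the groups, and 21.3% to 26.5% of probes were near background.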
